A study of Mus musculus with 134 samples.

Results

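The genes described here were 9 negative-feedback and target genes of the canonical Wnt pathway: Axin2, Axin1, Sp5, Nkd1, Notum, Znrf3, Rnf43, Dkk1 and Lgr5. They were chosen by name, not by a measured value, and all 9 of 9 were found among the 25209 genes of the bulk expression tables. In the single-cell tables, 8 of 9 had a row among 17622 genes of the H3K27me3 experiments and 7 of 9 among 17142 genes of the H3K4me3 experiments. Dkk1 had a row in neither single-cell table, and Sp5 had none in the H3K4me3 table.

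In the canonical pathway, a Wnt ligand binds a Frizzled receptor with the co-receptor Lrp5 or Lrp6 and halts the destruction complex that degrades β-catenin, which then enters the nucleus and activates genes bound by TCF/LEF factors. Several of these targets restrain the pathway. Axin2 and Axin1 are scaffolds of the destruction complex, and Axin2 is the classical transcriptional readout of the pathway. Nkd1 binds Dishevelled, Notum removes a lipid from Wnt ligands outside the cell, and Dkk1 blocks the co-receptor. Znrf3 and Rnf43 are membrane E3 ligases that remove Frizzled receptors, and Lgr5 binds R-spondins and counteracts these ligases. Sp5 is a zinc-finger transcription factor induced directly by β-catenin. In mouse embryonic stem cells, Wnt signals favour self-renewal, and a ligand presented on a bead at a single contact gives daughter cells that lie proximal or distal to it.

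Per the labels and methods, all libraries came from the mouse embryonic stem cell line ES-E14TG2a grown in serum with leukemia inhibitory factor, and the 4 knockout libraries came from derived CRISPR clones. SET-seq reads RNA by letting Tn5 transposase cut hybrids of mRNA and cDNA, alone or together with antibody-directed chromatin profiling in the same cells. The bulk expression libraries numbered 54, with 2 per condition in 27 conditions. Tagmentation of purified total RNA in vitro gave 28 libraries at 16 or 37 C for 5, 10, 15 or 30 min, with 25, 50 or 100 ng/ul Tn5, or from 300 ng, 3 ng or 30 pg RNA. Conventional ligation-based RNA-seq gave 2 libraries, and SET-seq without an antibody gave 8 from 10, 100, 1000 or 10000 cells. Joint SET-seq with an H3K27me3 or H3K4me3 antibody (co-assay below) gave 12 from 100, 1000 or 10000 cells. Aebp2, a subunit that joins the H3K27 methyltransferase complex PRC2, was targeted in KO1 and KO2, each a clone from its own guide RNA, with 2 H3K27me3 co-assay libraries per clone. No bulk library used here was labelled with a Wnt3a treatment. The single cells were picked by mouth pipette after about 12 h with Wnt3a-coated beads and sorted by position, and they came from 10 H3K27me3 and 6 H3K4me3 experiments.

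Depth without the ribosomal RNA gene Rn45s ran from 188275 to 16888686 counts per bulk library, and the smallest was the second SET-seq library of 10 cells. Rn45s itself took 1.54 to 84.6% of the counts. Levels below are CPM, counts scaled to a common library total without Rn45s, and levels are compared between genes only as RPKM, which divides CPM by exon length in kilobases. The study describes the in vitro libraries of each temperature and time as biologically independent, and those of each KO clone as independent experiments. Nothing in the labels says that libraries of a bulk condition came from separate cultures. The p-values therefore measure the spread between these libraries, which may be technical. In bulk libraries, a change in the share of cells that express a gene and a change in RNA per cell cannot be told apart. The 6 pluripotency markers were detected in every class of bulk library, with summed levels of 1633 to 5001 CPM.

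The sequences of the genes on which the bulk results turn are shown first. On mm9, the build of the count tables, Axin2 spans chr11:108781663-108812095 on the forward strand with 11 exon blocks and 4258 exon bases. Sp5 is compact and spans chr2:70312980-70315783 on the forward strand, where 74.8% of its 2804 bases are exonic. By contrast, exons make up 6.06% of the 73544 bases of Nkd1, 4.54% of the 168519 bases of Znrf3 and 3.43% of the 137467 bases of Lgr5. Intronic reads were counted in the single cells but not in bulk. Rnf43 shares 227 exon bases with 1110028F11Rik, so part of its counts is uncertain. The Axin2 mRNA was assayed in the study with the following primers, each of which matched mm9 chromosome 11 once, at chr11:108784621-108784641 and chr11:108784707-108784725, both in exon 2.
Axin2 forward primer: tgactctccttccagatccca
Axin2 reverse primer: tgcccacactaggctgaca

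RefSeq promoters on GRCm38.p6, from 250 bases before to 50 bases after the annotated start, were on hand for Axin2, Sp5, Nkd1, Rnf43 and Dkk1. They were searched on both strands for CTTTGAA and CTTTGAT, spelled forms of the TCF/LEF site, which do not overlap each other. Sp5 held CTTTGAT on the forward strand with its first base at -104, and Dkk1 held CTTTGAA on its own strand with its first base at -117. The promoters of Axin2, Nkd1 and Rnf43 held neither spelling in this window. Among 32851 promoters of the same length, 5.14% held CTTTGAA and 3.73% held CTTTGAT. The promoters of Axin2 (chr11:108920099-108920398, forward strand) and Sp5 (chr2:70474673-70474972, forward strand) follow because these genes passed the tests both of ligation and of SET-seq against in vitro tagmentation, with the matched motif in capitals.
Axin2 promoter: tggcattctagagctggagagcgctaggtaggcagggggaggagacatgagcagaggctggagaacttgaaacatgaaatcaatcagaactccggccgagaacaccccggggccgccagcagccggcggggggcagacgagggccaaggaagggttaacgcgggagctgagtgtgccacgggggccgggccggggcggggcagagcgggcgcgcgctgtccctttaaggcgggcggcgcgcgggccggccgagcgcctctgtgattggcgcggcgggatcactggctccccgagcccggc
Sp5 promoter: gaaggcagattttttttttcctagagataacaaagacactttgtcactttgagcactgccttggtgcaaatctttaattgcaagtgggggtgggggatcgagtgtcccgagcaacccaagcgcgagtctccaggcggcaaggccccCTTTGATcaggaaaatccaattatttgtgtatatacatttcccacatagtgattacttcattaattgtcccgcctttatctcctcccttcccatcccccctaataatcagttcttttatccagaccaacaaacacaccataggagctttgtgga

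The 9 genes fell into an abundant and a rare set in the bulk libraries. Per exon length, the mean over the 27 conditions was 50.0 RPKM for Sp5, 39.9 RPKM for Notum, 31.0 RPKM for Axin2 and 14.7 RPKM for Axin1. Znrf3 followed at 3.16 RPKM and Nkd1 at 1.47 RPKM. Rnf43 had 0.403 RPKM, Dkk1 0.342 RPKM and Lgr5 0.0382 RPKM. Neighbours in this order overlapped in their ranges over libraries. Lgr5 had 43 counts in all 54 libraries together and was at 0 in 36 of them, Dkk1 had 230 counts and was at 0 in 17, and Rnf43 had 575 counts and was at 0 in 11.

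**Figure D1:**
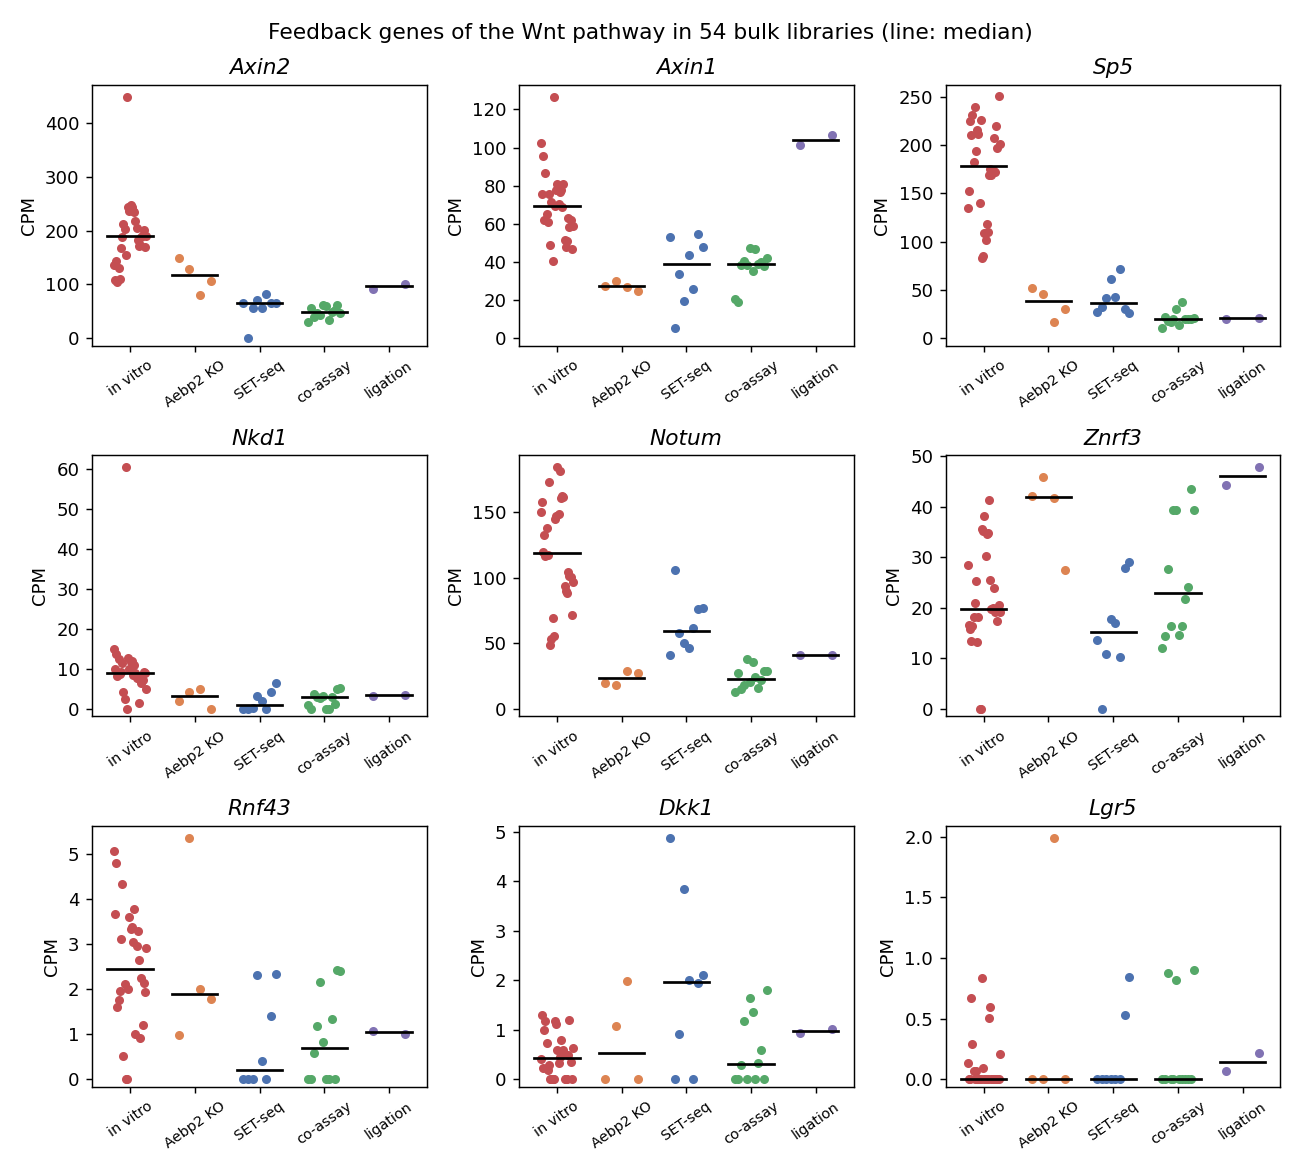
Level of each of the 9 genes in CPM (vertical axes, linear) in each of the 54 bulk libraries by library type, with a point for each library and a line at the median of the type. Axin2 and Sp5 lay highest in the in vitro libraries, at 104 to 448 and 83.4 to 250.3 CPM, while Lgr5 had no count in 36 libraries.

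The levels of most members differed by library type. Axin2 ran from 104 to 448 CPM in the 28 in vitro libraries with a median of 189.6 CPM. It ran from 91.4 to 101 CPM in the 2 ligation libraries, from 0 to 81.8 CPM in the 8 SET-seq libraries with a median of 64.8 CPM, and from 29.1 to 61.4 CPM in the 12 co-assay libraries with a median of 47.8 CPM. The in vitro libraries thus did not overlap any of these other types for Axin2. The 4 Aebp2 KO libraries, at 80.5 to 148 CPM, overlapped the in vitro range, although they were prepared as co-assay libraries. The only Axin2 value of 0 was the second SET-seq library of 10 cells, which had 188275 counts in all.

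Sp5 followed the same division with a larger distance. Its range was 83.4 to 250.3 CPM in vitro, 26.2 to 71.6 CPM in SET-seq, 20.1 to 21.1 CPM in ligation, 10.8 to 37.05 CPM in co-assay and 16.9 to 52.0 CPM in the KO libraries. No library of another type reached the in vitro range, the KO libraries included. Notum was also highest in vitro, with a median of 119 CPM there against 59.4 CPM in SET-seq, 22.9 CPM in co-assay and 23.6 CPM in the KO libraries, and its in vitro and SET-seq ranges overlapped. Axin1 differed less, with medians of 69.2 CPM in vitro, 38.7 CPM in SET-seq, 38.7 CPM in co-assay and 27.2 CPM in the KO libraries, and its ligation values of 101 and 107 CPM lay within the in vitro range of 40.5 to 127 CPM. Znrf3 had 44.4 and 47.8 CPM in ligation and medians of 42.0 CPM in the KO libraries, 23.0 CPM in co-assay, 19.9 CPM in vitro and 15.3 CPM in SET-seq, so it was not highest in vitro.

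Both scaffolds can be compared per length. The ratio of Axin2 to Axin1 RPKM had a median of 2.73 (1.17 to 3.83) over the 28 in vitro libraries and 3.79 (2.66 to 4.79) over the 4 KO libraries. It was 1.12 (0.630 to 2.60) over the 12 co-assay libraries, 1.21 (1.05 to 3.23) over the 7 SET-seq libraries that had more than 3 counts of both genes, and 0.801 and 0.841 in the ligation libraries. Axin2 thus exceeded Axin1 in every in vitro and KO library and was below it in both ligation libraries.

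A gene outside the pathway also divided the libraries. ES-E14TG2a is known as a line deficient in the purine salvage enzyme gene Hprt. Hprt was under 5 CPM in 32 libraries, at 0 to 2.14 CPM, and these were the 28 in vitro and the 4 KO libraries. It was 66.2 to 485 CPM in the other 22, which were the SET-seq, co-assay and ligation libraries, and this goes against the label of an Hprt-deficient line for them. Axin2 had a median of 185 CPM (80.5 to 448) in the former and 56.5 CPM (0 to 101) in the latter. Sp5 had a median of 173 CPM (16.9 to 250.3) in the former and 21.4 CPM (10.8 to 71.6) in the latter. These sets were read from the data and are not groups of the study, and the part of the Hprt difference in any member's level was not tested.

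**Figure D2:**
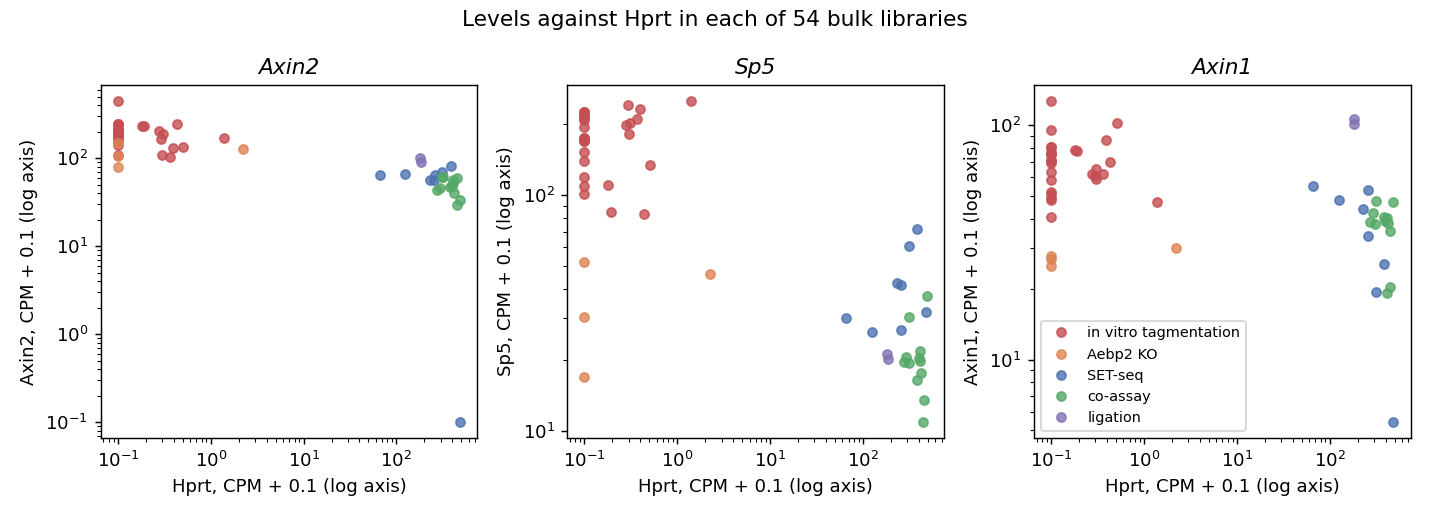
Levels of Axin2, Sp5 and Axin1 against Hprt in each of the 54 bulk libraries (CPM + 0.1, log axes, points coloured by library type). The 32 libraries with Hprt under 5 CPM held the in vitro and Aebp2 KO libraries, and of these the KO libraries had Axin2 at 80.5 to 148 CPM and Sp5 at 16.9 to 52.0 CPM, below the in vitro range of 83.4 to 250.3 CPM for Sp5.

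The knockout comparison asked which genes depend on Aebp2. Aebp2 itself was 15.7 and 15.0 CPM in KO1 and 49.7 and 30.2 CPM in KO2, against 65.5 and 76.0 CPM in the wild-type (WT) H3K27me3 co-assay libraries of 10000 cells. Its mRNA was therefore lower in each KO library than in each WT library, and more so in KO1. A small deletion made by Cas9 need not remove the mRNA. The sources do not name the WT libraries that the clones were set against, and the 10000-cell co-assay was used because its antibody matched.

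Axin2 was higher in the KO libraries against these WT libraries. Its level was 61.4 and 46.2 CPM in WT, 148 and 128 CPM in KO1, and 80.5 and 106 CPM in KO2. All 4 KO values lay above both WT values, and KO1 lay above KO2. The fold was 2.40 (log2 1.26 ± 0.24 SE, edgeR quasi-likelihood adjusted p = 0.000916, 4 KO against 2 WT libraries). By the thresholds of the study, an unadjusted P under 0.05 and a log2 change beyond 1 in size, Axin2 was the 1 member called of 5 tested, where 29.3% of 9523 genes were called (14.1% higher and 15.2% lower), so the count for the members was not above the background.

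Sp5 lay at the edge of the threshold. Its level was 19.4 and 20.4 CPM in WT, 52.0 and 46.0 CPM in KO1, and 16.9 and 30.2 CPM in KO2. Both KO1 values lay above WT, while KO2 lay on either side of it. The log2 change was 0.99 ± 0.36 (edgeR adjusted p = 0.0382), and 44.4% of all genes had an adjusted p under 0.05. Sp5 was called with KO1 alone (log2 1.39), and also without the first KO2 library (log2 1.21) or without the second (log2 1.05), each of which raised the count of called members to 2. By the same thresholds it was called with DESeq2 (log2 1.008) and with Rn45s kept in edgeR (log2 1.002). With KO2 alone it was not called (log2 0.46 ± 0.34, unadjusted p = 0.187 by edgeR). Its adjusted p rose above 0.05 with DESeq2 (0.0674), with the replicate block in edgeR (0.0585) and without either WT or either KO1 library (0.0672 to 0.187).

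The remaining tested members did not pass. Axin1 was 38.0 and 42.0 CPM in WT and 24.9 to 29.9 CPM in the 4 KO libraries, so the ranges did not overlap, but its log2 change of -0.42 ± 0.24 had an adjusted p of 0.173 by edgeR. Notum was 29.1 and 28.5 CPM in WT against 18.2 to 28.8 CPM in KO (log2 -0.13 ± 0.30, edgeR adjusted p = 0.739). Znrf3 was 43.6 and 39.3 CPM in WT against 27.6 to 46.0 CPM in KO (log2 0.07 ± 0.25, edgeR adjusted p = 0.839). Nkd1 with 0 to 17 counts, Rnf43 with 1 to 8, Dkk1 with 0 to 6 and Lgr5 with 0 to 3 counts per library were removed by the filter on low counts, so a difference in them was not detectable at this depth.

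The direction for Axin2 and Sp5 turned with the reference. The KO libraries had Hprt at 0 to 2.14 CPM and the WT libraries at 310.3 and 291 CPM, whereas the in vitro libraries at 37 C and 5 min had no Hprt count. In KO against WT, loss of Aebp2 and the difference that Hprt marks cannot be told apart. Against those in vitro libraries, a comparison added after the data were seen, Axin2 was lower in KO by 0.60 on the log2 scale (log2 -0.60, edgeR adjusted p = 0.0440) and Sp5 lower still (log2 -2.23, edgeR adjusted p = 2.32e-05). Against SET-seq of 10000 cells without antibody, Axin2 was higher by log2 0.68, short of the threshold, while Axin1 at log2 -1.05 and Notum at log2 -1.82 passed it. Other measures also differed between the KO and the co-assay WT libraries. The summed level of 6 pluripotency markers was 1681 to 2348 CPM in KO against 3268 and 3286 CPM in WT, and that of 4 trophoblast markers was 69.5 to 101 CPM against 31.5 and 36.6 CPM, with Elf5 at 0 in KO. That of 5 mesendoderm markers was 39.1 to 47.7 CPM against 27.9 and 33.9 CPM, and the sums for primitive endoderm, neural and fibroblast markers overlapped. In SET-seq of 10000 cells, pluripotency markers summed to 1633 and 1968 CPM and mesendoderm markers to 25.0 and 38.7 CPM. Trophoblast markers there summed to 98.7 and 107 CPM, with Elf5 at 0. In the in vitro libraries, pluripotency markers summed to 2076 CPM, mesendoderm markers to 82.2 and 109 CPM, and trophoblast markers to 38.45 and 53.8 CPM. The part of these markers in the result was not tested.

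**Figure D3:**
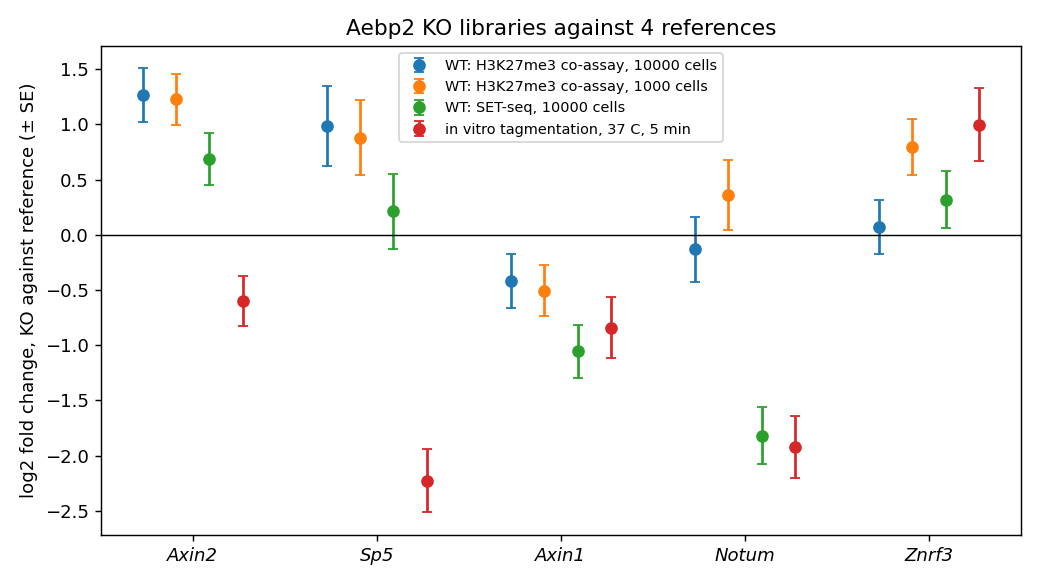
The log2 fold change (± SE, edgeR) of the 4 Aebp2 KO libraries against each of 4 pairs of reference libraries, for the 5 tested genes. Axin2 was at 1.26 against the co-assay WT libraries of 10000 cells, at 0.68 against SET-seq and at -0.60 against the in vitro libraries at 37 C and 5 min, and Sp5 turned likewise, so their direction depended on the reference.

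Other genes of the pathway were read from a list of 67, of which 36 were tested. In KO against WT, 9 were called higher and 2 lower, against 14.1% higher and 15.2% lower of all genes, and the median log2 change was 0.42 against 0.00 over all genes. Lef1, a TCF/LEF factor and itself a Wnt target, had 77, 67, 38 and 36 counts in KO (75.5, 71.7, 37.8 and 32.0 CPM) against 0 and 3 counts in WT (edgeR adjusted p = 6.40e-06). Sp8, a relative of Sp5, had 4 to 18 counts against 1 and 3 (edgeR adjusted p = 0.00181). The lower genes were Fzd5, a Frizzled receptor, at 61.8 to 72.7 CPM against 256 and 255 CPM (log2 -1.80), and Gsk3a, a kinase of the destruction complex, at 24.0 to 35.3 CPM against 71.1 and 86.8 CPM (log2 -1.40). Lef1 too followed the reference, since the in vitro libraries at 37 C and 5 min had 105 and 133 CPM. The other named genes did not turn in level against these libraries. Sp8 had 0 and 2 counts there and stayed higher in KO. Fzd5 at 108 and 102 CPM and Gsk3a at 57.1 and 58.3 CPM there stayed lower in KO.

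The clones were also set against each other. Between KO1 and KO2, 0 of 5 tested members were called by edgeR with the same thresholds, where 6.21% of 8551 genes were called (4.25% higher and 1.96% lower in KO1), and DESeq2 also called 0. At an unadjusted p under 0.05 by edgeR were 2066 of the 8551 genes, among them 2 members, both higher in KO1. These were Axin2 with log2 0.47 ± 0.21 (adjusted p = 0.160) and Sp5 with log2 0.94 ± 0.34 (adjusted p = 0.0699). With 5 members tested, this count is no result about the members. Without the second KO1 library or the second KO2 library, Sp5 passed the thresholds, with log2 1.02 and 1.45. Of the pathway list, 33 genes were tested, with 1 called higher and 1 lower.

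The members were also compared between temperatures of tagmentation in vitro. Comparing 8 libraries at 37 C with 8 at 16 C with time as a covariate, 6 of 7 tested members passed an adjusted p of 0.05 by edgeR, against 63.4% of 11788 genes (32% higher and 31.4% lower). With 7 members tested and most genes passing, this count is no result about the members, of which 1 was higher and 5 were lower. These libraries were made from total RNA of the same cell line. Sp5 was the only member that was higher at 37 C. Its mean was 84.1, 105, 114 and 172 CPM at 16 C after 5, 10, 15 and 30 min, and 171, 190.1, 209 and 226 CPM at 37 C. The level at 16 C and 30 min was near that at 37 C and 5 min, and at each time the 37 C libraries lay above the 16 C libraries (log2 0.83 ± 0.08, edgeR adjusted p = 4.45e-10).

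Axin2, Axin1, Nkd1, Notum and Znrf3 were lower at 37 C. Axin2 had means of 239.8, 246, 235 and 211 CPM at 16 C and 177, 180.5, 197 and 179 CPM at 37 C, without overlap of the temperatures at any time (log2 -0.28 ± 0.06, edgeR adjusted p = 6.52e-05). Notum ran from 144 to 185 CPM at 16 C and from 71.4 to 104 CPM at 37 C, without overlap (log2 -0.73 ± 0.07, edgeR adjusted p = 7.31e-10). Znrf3 ran from 25.4 to 41.3 CPM and from 17.5 to 23.8 CPM, also without overlap (log2 -0.76 ± 0.10, edgeR adjusted p = 2.13e-07). Axin1 decreased by 0.37 and Nkd1 decreased by 0.51 on the log2 scale, with edgeR adjusted p of 7.63e-05 and 0.0124, and Nkd1 overlapped at 15 and 30 min. Nkd1 lost its call without the second library at 37 C and 10 min (adjusted p = 0.0553) and in the 5 min libraries alone (log2 -1.14, adjusted p = 0.113). Rnf43 had log2 -0.44 ± 0.28 (edgeR adjusted p = 0.172), and Dkk1 and Lgr5 did not pass the filter.

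**Figure D4:**
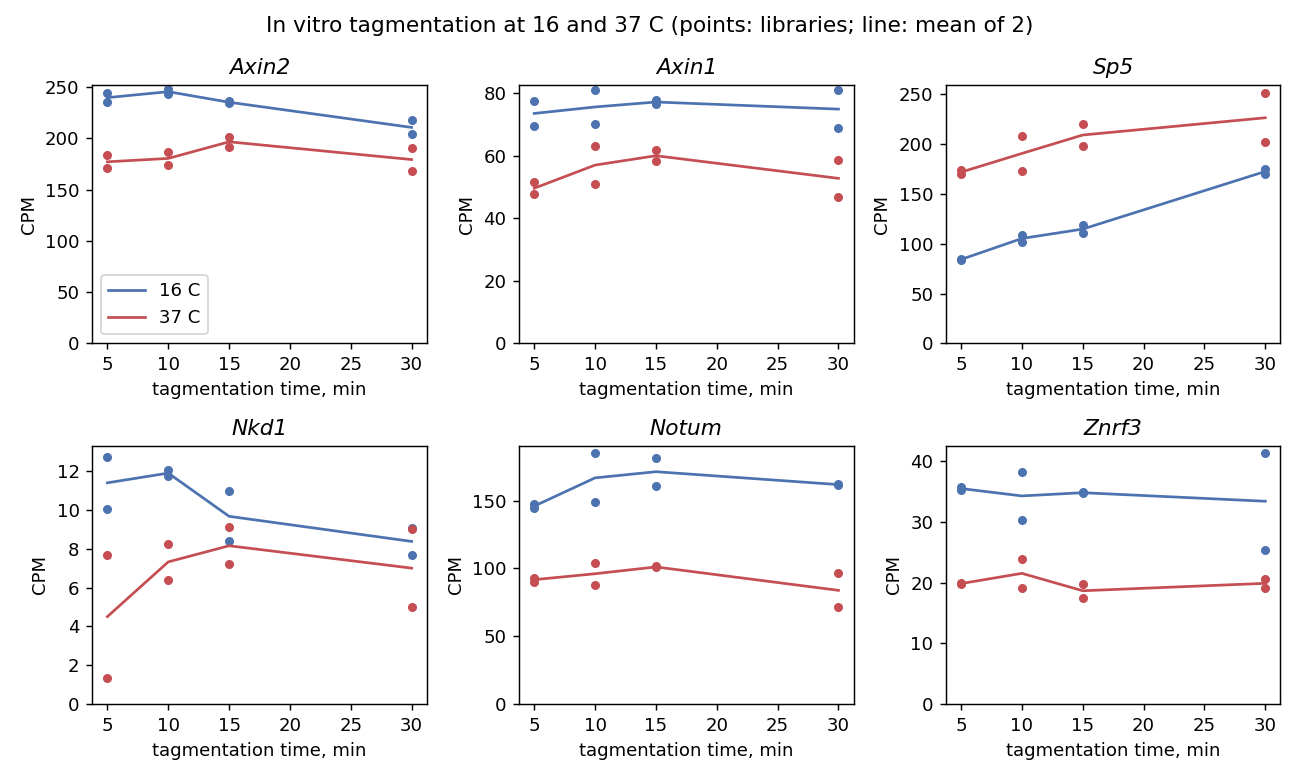
Levels (CPM) of the 6 members that passed the test of temperature in the in vitro libraries against tagmentation time in min, at 16 and 37 C (points, libraries; lines, means of 2). Sp5 was higher at 37 C at each time, from 171 to 226 CPM against 84.1 to 172 CPM, and the other members were lower at 37 C.

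Of the pathway list, 47 genes were tested for temperature, with 17 higher and 20 lower at 37 C. The leading changes were lower for Nkd2, the relative of Nkd1 (log2 -1.39), and the receptor Fzd9 (log2 -1.03), and higher for the kinase Csnk1a1 (log2 1.00) and the target Myc (log2 0.82).

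The amount of Tn5 was tested between 100 and 25 ng/ul. No member of 8 tested was called by edgeR, where 0% of 12838 genes were called, 42 genes had an unadjusted p under 0.05, and DESeq2 also called 0. Same-numbered libraries of both amounts deviated together (correlation 0.676). With a replicate block, edgeR called 1 gene, not a member, and 1333 genes had an unadjusted p under 0.05. The lack of calls without the block therefore does not show that the amount of Tn5 had no effect. Rnf43 had the smallest unadjusted p among the members, 0.0333 by edgeR, with 5.05 and 3.67 CPM at 25 ng/ul and 1.75 and 1.95 CPM at 100 ng/ul (log2 -1.13 ± 0.40, adjusted p = 1.00). Sp5 was 134 and 152 CPM at 25 ng/ul and 231 and 182 CPM at 100 ng/ul (log2 0.57 ± 0.26, edgeR adjusted p = 1.00), without overlap.

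Dilution of RNA from 300 ng to 3 ng lowered 2 of 7 tested members, against 52.6% of 11087 genes called (26% higher and 26.6% lower). Notum was 117 and 173 CPM at 300 ng and 48.5 and 53.5 CPM at 3 ng (log2 -1.61 ± 0.21, edgeR adjusted p = 1.12e-07). Nkd1 was 9.15 and 11.6 CPM against 4.08 and 2.42 CPM (log2 -1.87 ± 0.45, edgeR adjusted p = 0.000755). These inhibitors did not overlap between the amounts. Axin2, at 168 and 189 CPM against 211 and 203 CPM, did not overlap either but had log2 0.11 ± 0.17 (edgeR adjusted p = 0.610). Without the second 300 ng library only Notum passed, with Nkd1 at an adjusted p of 0.0545, and without the second 3 ng library Znrf3 and Rnf43 passed as well. At 30 pg, the members scattered, with Axin2 at 155 and 448 CPM, Nkd1 at 60.5 and 0 CPM, and Znrf3 and Rnf43 without a count in either library. Of the pathway list, 45 genes were tested, with 9 higher and 15 lower at 3 ng.

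The RNA readouts were compared at 10000 cells or bulk RNA. Ligation-based RNA-seq against in vitro tagmentation at 37 C and 5 min gave 5 of 7 tested members at an edgeR adjusted p under 0.05, against 58.1% of 12282 genes (30.3% higher and 27.9% lower). Sp5 was 20.1 and 21.1 CPM against 169 and 174 CPM, a fold of 0.102 (log2 -3.29 ± 0.14, edgeR adjusted p = 2.26e-13). Notum was 40.9 and 41.0 CPM against 93.4 and 90.2 CPM (log2 -1.40 ± 0.15), and Axin2 was 91.4 and 101 CPM against 183 and 171 CPM (log2 -1.12 ± 0.12). Axin1 and Znrf3 were higher in ligation, with 101 and 107 CPM against 51.6 and 47.7 CPM (log2 0.82 ± 0.16) and with 44.4 and 47.8 CPM against 19.8 and 19.9 CPM (log2 0.98 ± 0.24). The libraries did not overlap for any of these 5 called genes. The share of all genes without overlap was not counted, so this adds nothing to the calls. The median of all genes was 0.13 on this scale, and each of the 5 kept its direction relative to it. Against all 16 temperature libraries, Nkd1 (log2 -1.67) and Rnf43 (log2 -1.63) were also called and Znrf3 (log2 0.47) was not. Of the pathway list, 50 genes were tested, with 14 higher and 14 lower.

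SET-seq of 10000 cells differed from the same in vitro libraries for the transcription factor and the inducible scaffold. Here 2 of 6 tested members passed by edgeR, against 49.8% of 10844 genes, 24.9% in each direction. Sp5 was 30.1 and 26.2 CPM (log2 -2.52 ± 0.21, edgeR adjusted p = 2.54e-05), and Axin2 was 64.9 and 65.5 CPM (log2 -1.36 ± 0.19, edgeR adjusted p = 0.000271), both below the in vitro values given above without overlap. Notum at 76.4 and 76.5 CPM, Axin1 at 54.7 and 48.0 CPM and Znrf3 at 28.0 and 29.2 CPM did not pass, with log2 -0.18 ± 0.20, 0.13 ± 0.24 and 0.60 ± 0.29. Both of these comparisons used the same in vitro libraries. In both, Hprt differed as well. Per the methods, ligation libraries were also made from total RNA, after purification of its poly-A mRNA. For ligation, the library chemistry with this purification and the Hprt level cannot be told apart as a source. SET-seq was tagmented at the same temperature and time as these in vitro libraries, but from cytoplasmic RNA. For SET-seq, the RNA fraction with its preparation and the Hprt level cannot be told apart as a source. Of the pathway list, 45 genes were tested, with 7 higher and 17 lower in SET-seq and a median log2 change of -0.64 against 0.01 over all genes.

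The antibody made no detectable difference to the members. In the co-assay, with cell number as a covariate, 0 of 6 tested members were called by edgeR between H3K27me3 and H3K4me3, as was 0% of 11616 genes. At an unadjusted p under 0.05 there were 361 genes, none of them a member, and DESeq2 called 0. Estimates ran from log2 -0.62 ± 0.85 for Nkd1 to 0.33 ± 0.18 for Axin1. Between 10 and 10000 cells without antibody, edgeR called 0 of 6 members and 0% of 11084 genes, with 1124 at an unadjusted p under 0.05 and 0 by DESeq2. The libraries of 10 cells disagreed with each other, since Axin2 had 239 counts in the first and 0 in the second, Axin1 196 and 1, Znrf3 50 and 0, and Nkd1 0 in both. Without the first of them, Axin2 was at log2 -10.86 and Znrf3 at log2 -9.67, while without the second Znrf3 was at log2 -1.09. Each of these fits left a single library of 10 cells. An absence of change can therefore not be read from this comparison.

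Genes whose levels ran most like those of each member were sought among 12741 genes of at least 1 CPM over the 27 condition means, by Pearson's r of log2(CPM + 1). These values describe conditions that share library chemistry, depth and Hprt level. Axin2 was nearest to Mylip (r = 0.966) and Scd1 (r = 0.958), and Sp5 to Macroh2a1 (r = 0.953) and Csnk1e (r = 0.947). Notum was nearest to Rpn2 (r = 0.964), Axin1 to Hmox1 (r = 0.926), Nkd1 to Large2 (r = 0.914), Znrf3 to Maml1 (r = 0.949) and Rnf43 to Megf11 (r = 0.923). No member was the nearest gene of another, and Dkk1 and Lgr5 were under 1 CPM.

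The single-cell experiments asked whether daughter cells proximal and distal to the Wnt3a bead differ. Of 752 cells, 545 had more than 1000 and fewer than 5000 genes and were used, 335 from H3K27me3 and 210 from H3K4me3 experiments, 278 proximal and 267 distal. Their depth ran from 5364 to 2020096 reads with a median of 123722, and reads rather than molecules were counted. Intervals below pool the cells of all experiments, so they cover counting error only and not the spread between experiments. The cells carried 96 different barcodes, each at most once in an experiment, and 80 of them named cells of more than 1 experiment. H3K27me3 experiments 8, 9 and 10, with 62, 47 and 56 cells, stood apart. Their cells held a mean of 0.290, 0.0426 and 0.179 of 5 pluripotency markers, against 1.00 to 4.05 in the other experiments, which goes against the label of embryonic stem cells. Pou5f1 was in 0% of their cells, as it was in H3K27me3 experiment 1 and H3K4me3 experiment 1, which had 7 and 4 cells. Each position result was therefore also taken without them.

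The rank of the members in single cells was unlike that in bulk. Nkd1 was detected, with at least 1 read, in 322 of 545 cells (59.1%, exact 95% interval 54.8 to 63.2), Lgr5 in 182 (33.4%, 29.4 to 37.5), Axin1 in 117 (21.5%, 18.1 to 25.2) and Znrf3 in 116 (21.3%, 17.9 to 25.0). Notum was detected in 25 cells (4.59%), Axin2 in 11 (2.02%, 1.01 to 3.58), Rnf43 in 10 (1.83%) and Sp5 in 9, all of them H3K27me3 cells, since only that table had a row for it. The best detected genes, Nkd1 and Lgr5, had 1.19 and 0.146 RPKM in bulk SET-seq of 10000 cells, where Axin2 had 15.3 RPKM and Notum 37.9 RPKM. Matched on reads rather than on level per length, the 2232 genes of 40 to 100 CPM in that bulk assay had a median detection of 11%, with quartiles of 7.34 and 16.9%. Of the 3 members in this class, Axin2 and Notum lay under the lower quartile and Axin1 lay above the upper one. Of the 545 cells, 429 had a read of at least 1 member and 116 had none.

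Gene length may be set beside this, since intronic reads were counted in the single cells and only exonic reads in bulk. Over 12595 genes of at least 1 CPM in bulk, detection had a Spearman rho of 0.537 with bulk CPM and 0.343 with the genomic span of the gene, as a description over genes that share the same cells. In the H3K27me3 experiments these were 0.426 and 0.403, and in the H3K4me3 experiments 0.703 and 0.186. Nkd1, Lgr5 and Znrf3 have long spans, while Sp5 (2804 bases) and Notum (7049 bases) are short, but Rnf43 with 72453 bases was rarely detected. The part of intronic or genomic DNA reads in these values was not tested.

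Detection of Nkd1 and Lgr5 went with the experiment. Nkd1 was in 100% of the cells of H3K27me3 experiments 1, 2, 6, 8, 9 and 10, and in 6.67 to 50.0% of those of experiments 3, 4, 5 and 7. In the H3K4me3 experiments it was in 0 to 86.4%. Lgr5 was in 45 of 45 cells of H3K27me3 experiment 6, which held 8675 of its 8970 reads, and in 0 to 72.3% of the cells elsewhere. Aebp2 reads made up 1.38 to 2.72% of all reads in the 6 experiments with Nkd1 in each cell, against 0 to 0.787% in the H3K4me3 experiments. In the remaining H3K27me3 experiments the 2 did not go together. Aebp2 took 7.58% of the reads in experiment 4, where Nkd1 was in 1 of 15 cells, and 3.06% in experiment 5, where Nkd1 was in 47.6%. It took 1.29% in experiment 7 (Nkd1 in 30.8%) and 0.0123% in experiment 3 (Nkd1 in 50.0%). The relation between them was not tested.

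Reads of the rarer members were concentrated in few cells. Sp5 had 864 reads in all, 787 of them in a single distal cell of H3K27me3 experiment 2. Axin2 had 64 reads, 41 of them in a single cell, and 8 of its 11 cells had 1 read. Rnf43 had 26 reads, 24 of them in 8 distal cells of H3K4me3 experiment 3.

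Axin2, the readout of the pathway, was detected in too few experiments for a difference by position to pass. It was detected in 4 of 269 proximal and 7 of 264 distal cells of the 14 experiments with at least 3 cells in each position. The mean difference within experiments, proximal minus distal, was -0.391 percentage points (SD 8.50 over 14 experiments), positive in 2 and negative in 5 (exact two-sided sign-flip permutation p = 0.859, adjusted p = 0.987, smallest p allowed 0.0156). At a detection of 2.02%, it differed in 7 experiments only. None of the 7 tested members passed, as was the case for 0% of 13038 genes, of which 1101 had an unadjusted p under 0.05. With so few genes under that limit, the smallest p allowed for Axin2 could not have passed the adjustment, so the test cannot decide for it. The smallest p that the sign-flip test allowed ran from 0.000244 for Axin1 to 0.25 for Rnf43, and the smallest adjusted p of any gene was 0.419.

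The frequently detected members differed between positions by less than the spread between experiments. Nkd1 was in 154 of 269 proximal and 160 of 264 distal cells (-2.11 points, SD 17.8, exact permutation p = 0.684). Lgr5 was in 94 and 84 cells (-1.13 points, SD 16.9, exact permutation p = 0.818). Axin1 was in 58 and 53 cells (-1.53 points, SD 17.0, exact permutation p = 0.794), and Znrf3 was in 60 and 53 (1.5 points, SD 13.2, exact permutation p = 0.688). For Axin1 and Lgr5, the pooled share was higher in proximal cells while the mean difference within experiments was negative.

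The rarer members had few cells in either position. Rnf43 was in 0 of 269 proximal and 10 of 264 distal cells (-3.45 points, SD 8.48), negative in the 3 experiments in which it was detected. The exact permutation p of 0.25 (adjusted p = 0.760) is the smallest that 3 such experiments allow, so Rnf43 could not have passed. The distal cells were 8 of 27 in H3K4me3 experiment 3, 1 of 23 in H3K4me3 experiment 4 and 1 of 7 in H3K27me3 experiment 3, so 1 experiment decided the count. By a limit of 3 counts, the 0 in proximal cells allows up to 1.75% of 171 cells in the H3K27me3 and 2.80% of 107 cells in the H3K4me3 experiments. The exact 95% intervals reach 2.13 and 3.39%. These limits pool the cells picked and leave out the spread between experiments, so they do not bound the share in proximal cells at large. Sp5 was in 1 of 171 proximal and 8 of 164 distal cells of the H3K27me3 experiments, 5 of the latter in experiment 7, and was too rare in the 14 experiments to be tested (1 and 7 cells). Notum was in 14 proximal and 11 distal cells (2.17 points, SD 9.38, exact permutation p = 0.425). By antibody, Notum was in 4 of 171 proximal and 8 of 164 distal cells with H3K27me3, and in 10 of 107 and 3 of 103 with H3K4me3, but this difference between antibodies was within the spread (permutation p = 0.170).

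**Figure D5:**
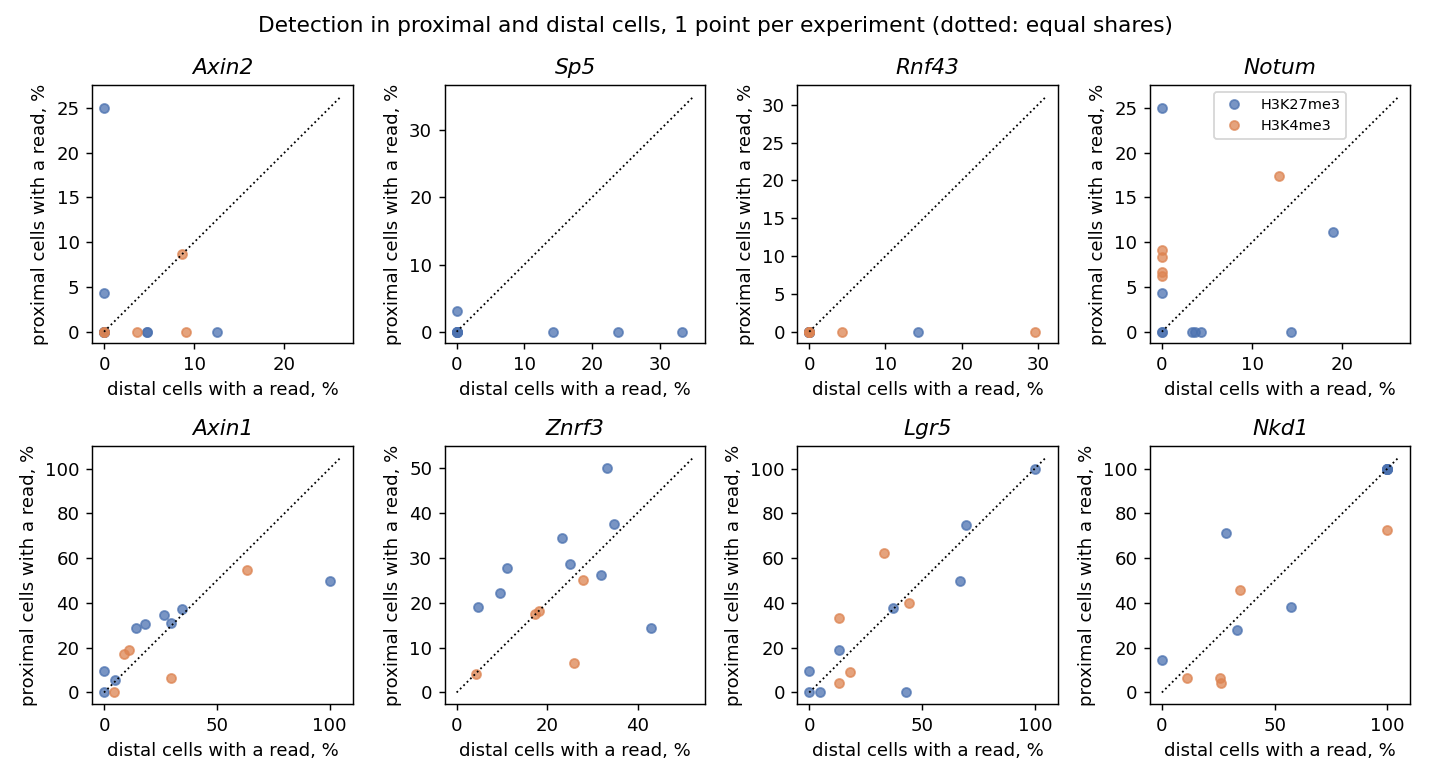
Share of distal cells (horizontal axes, %) and proximal cells (vertical axes, %) with at least 1 read of each gene, with a point for each of the 14 experiments that had at least 3 cells in each position, coloured by antibody, and a dotted line at equal shares. Points of the frequently detected genes lay on both sides of the line, while Rnf43 was in no proximal cell and in 10 distal cells, 8 of them in a single experiment.

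Summed counts per experiment and position gave the same picture for expression. With experiment as a block, edgeR called 0% of 13086 genes, with 1194 at an unadjusted p under 0.05, and DESeq2 called 62 genes, none of them a member. The 6 tested members had log2 changes from -0.21 ± 0.62 for Nkd1 to 1.00 ± 1.43 for Notum, with Axin2 at -0.11 ± 1.04 (edgeR adjusted p = 0.993), where the median over all genes was 0.11. Of the pathway list, 42 genes were tested and none was called. Without H3K27me3 experiments 8, 9 and 10 no member was called in detection or expression. The difference in detection between the antibodies was tested for 7 members by permuting the antibody over the 14 experiments in all 2002 ways, and p ran from 0.101 for Nkd1 to 0.755 for Axin1.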

How the data were processed

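Bulk and single-cell RNA libraries of mouse embryonic stem cells were analysed for 9 genes and 67 other Wnt pathway genes, and genes and lists were chosen with earlier results of these data known. Per the labels and methods, the authors trimmed reads with Trim Galore 0.6.4, aligned them to mm9 with STAR 2.5.4b and deposited counts per gene by featureCounts 2.0.0 over exons without regard to strand, with no normalization. The single-cell counts deposited by the authors come from zUMIs and hold exonic and intronic reads. Rn45s was removed. CPM and RPKM, the latter over merged exons of mm9, were computed here. Groups came from the sample labels, and bead positions from the study's list of cells. The main test was edgeR 4.0.16 quasi-likelihood with TMM normalization and filterByExpr, with Benjamini-Hochberg adjustment over all tested genes (R 4.3.3). Genes were called at an adjusted p of 0.05, and for Aebp2 KO at an unadjusted P under 0.05 with a log2 change beyond 1 in size. Detection was compared by an exact sign-flip permutation test over experiments, whose smallest p is 0.000122 where all 14 experiments differ and larger for rarer genes. Alternatives were DESeq2 1.42.0, its size factors, limma 3.58.1, no filter, Rn45s kept, a replicate block, other references, other read minimums and each library left out. On simulated data, 92% of 200 genes changed by log2 1.5 were recovered for KO against WT, 100% for temperature and 17% for single-cell expression. For detection, 64% of 200 genes shifted by 25 percentage points were recovered. The simulations used a fixed spread and genes above a count limit, and for detection genes of middle detection without variation between experiments. The shares therefore do not describe members that were rarer or that varied by experiment. Replicates of a condition differed beyond sampling noise throughout (chi-square per degree of freedom 1.77 to 59.3). The named genes were all 9 members, with up to 2 pathway genes per direction of largest change. Chromatin tables were not used here.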

Additional observations from a re-analysis of the deposited data

Results flagged for a closer look

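In 45 groups of 4 to 10 samples, 5 held a sample whose gap to the others was large for the range of the group by Dixon's test. Chance gives such a gap in about 1 in 20 groups of normally distributed values. Detection shares with many zeros are not so distributed, so that rate need not hold for them. Sp5 was 37.05 CPM in the second H3K27me3 co-assay library of 100 cells, against 13.4 to 20.4 CPM in the other libraries with that antibody. Axin2 was detected in 14.3% of the cells of H3K27me3 experiment 1, which is 1 of 7 cells, against 0 to 6.67% in the others. Axin1 was detected in 59.1% of the cells of H3K4me3 experiment 6, against 0 to 17.5% in the others. Notum was detected in 15.2% of the cells of H3K4me3 experiment 5, against 0 to 4.55% in the others. Rnf43 was detected in 14% of the cells of H3K4me3 experiment 3, against 0 to 2.13% in the others. The cause of these values was not tested.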

How the results depend on the processing

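Of 946 values of members under alternatives, 916 kept their side of the threshold, 23 newly passed it and 5 no longer passed. A further 2 turned in direction with a call in either setting. Values called in neither setting were counted as kept even where their sign changed. Notum in KO against WT, for example, had log2 -0.13, but log2 0.36 against the co-assay WT libraries of 1000 cells. The 2 that turned with a call were Axin2 (log2 -0.60) and Sp5 (log2 -2.23) in Aebp2 KO. Both did so against the in vitro libraries in place of WT, an alternative chosen after seeing the data. For KO against WT the number of called members was 2, in place of 1, with DESeq2, with Rn45s kept, with KO1 alone, with WT SET-seq of 10000 cells and with the in vitro libraries. Leaving out 1 library at a time gave 1 to 2 called members for KO against WT, 0 to 1 for KO1 against KO2, 5 to 6 for temperature, 1 to 4 for RNA amount and 0 to 3 for 10 against 10000 cells. The counts for the other comparisons did not move with any library left out. Same-numbered libraries deviated together with a correlation of -0.0941 to 0.676. In the comparisons with 3 or more pairs, it ran from -0.0465 to 0.00962 for KO against WT and from -0.0418 to 0.0992 between antibodies. For temperature it ran from -0.0727 to 0.257. These values do not decide whether the numbers pair the libraries. The other comparisons had a single pair, highest for Tn5 (0.676), and no label states a pairing. With the replicate block, Znrf3 newly passed for RNA amount (log2 -0.66, adjusted p = 0.0348) and no other member changed its call. Over all genes, the block gave 1 call in place of 0 for Tn5, with 1333 in place of 42 genes at an unadjusted p under 0.05, and 15 in place of 0 for 10 against 10000 cells. For expression by position, DESeq2 called 62 genes, no filter 24 and no replicate block 55 in place of 0. Depth limits the rare members, and the cause of these changes was not tested.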
